A study of Rattus norvegicus with 18 samples.

Results

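The 6 genes described here are a short list of endothelial and VEGF pathway genes: Vegfa (ENSRNOG00000019598), Kdr (ENSRNOG00000046829), Flt1 (ENSRNOG00000000940), Nos3 (ENSRNOG00000009348), Edn1 (ENSRNOG00000014361) and Hif1a (ENSRNOG00000008292). They were taken by identifier from the 32545 genes of the deposited table, by a rule that names identifiers and no measured value. All 6 were among the 14732 genes that passed the filter on low values. The pairing of identifier and name was given with the list. The table itself carries identifiers only, and the reference gene table used here matched 0 of them, so the names could not be checked against the data.

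RNA came from heart tissue of male Wistar rats of about 250 g at the start, 6 animals in each of 3 groups, each animal sequenced as 1 library. The group called saline received 5 weekly intravenous injections of saline. The group DOX+saline received doxorubicin, an anthracycline that damages heart muscle, at 3 mg/kg per week in the same number of injections, with subcutaneous saline. The group DOX+AICAR received the same doxorubicin with subcutaneous AICAR, a nucleoside that activates the energy-sensing kinase AMPK, at 0.5 g/kg. The labels give no age, and the saline rats carry another number series (51 to 56) than the doxorubicin rats (1 to 12). Whether these series mark separate cohorts is not stated. Anything that goes with the number series cannot be told apart from the drug in comparisons with saline. Heart tissue mixes muscle, vessel, connective tissue and blood cells. In such bulk samples fewer cells of a type and less RNA per cell cannot be told apart.

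VEGF-A is the main growth signal for blood vessels, and heart muscle cells are one of its sources. It binds a pair of receptors on endothelial cells: VEGFR2, encoded by Kdr, carries most of the growth signal, while VEGFR1, encoded by Flt1, binds the ligand tightly and signals weakly, and a secreted form of it acts as a decoy. HIF-1 alpha, encoded by Hif1a, is the oxygen-regulated factor that switches on Vegfa and is controlled largely through the stability of its protein. Endothelial nitric oxide synthase, encoded by Nos3, makes the vasodilator nitric oxide, and Edn1 encodes the precursor of endothelin-1, a strong vasoconstrictor. Values here count all transcripts of a gene, so the secreted and membrane forms of Flt1 and the splice forms of Vegfa are not kept apart.

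The depth behind the values ran from 20.57 M to 31.32 M reads per library (M, 1000000), recovered from the deposited TPM. That unit corrects reads for the length of the gene and sets every library to one common sum, so levels of different genes can be compared. Libraries of DOX+saline animals 1 and 6 were more alike than any other pair of libraries within a group. Between them the median chi-square of a gene's reads was 0.618, where sampling noise alone gives 0.455, while the other 44 pairs of libraries within a group gave 1.26 to 7.69. Their mean chi-square of 5.2 was above the 1 of sampling noise. That excess cannot show separate animals, since libraries made from the same animal can also differ by more than sampling noise. Whether these 2 libraries came from separate animals was therefore not settled, and they were kept as 2 samples, as labelled. For the genes called in DOX+saline against saline, the change between those groups is given with and without these 2 libraries. Nothing in the labels states that animals 1 and 6 shared a preparation.

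Stretches of promoter sequence are shown for 5 of the 6 genes, all but Hif1a. They are printed as RefSeq gives them on the build GRCr8, which is not the build of the deposited table (Rnor_6.0). Each runs 5′ to 3′ in the gene's direction, from 250 to 51 bases before the annotated start (for Vegfa the first of 2 starts). Capitals mark matches on either strand to the hypoxia response cores ACGTG and GCGTG, the GATA motif AGATAA, the GC box GGGCGG and the TATA box TATAAA, none of which overlap one another here. The AP-1 motif TGANTCA was also searched.
Vegfa (chr9:22452604-22452803, plus strand): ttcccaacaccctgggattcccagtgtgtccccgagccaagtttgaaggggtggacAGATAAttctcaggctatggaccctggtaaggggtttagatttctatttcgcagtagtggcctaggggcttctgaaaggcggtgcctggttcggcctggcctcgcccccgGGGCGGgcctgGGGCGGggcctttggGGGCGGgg
Kdr (chr14:32571813-32572012, plus strand): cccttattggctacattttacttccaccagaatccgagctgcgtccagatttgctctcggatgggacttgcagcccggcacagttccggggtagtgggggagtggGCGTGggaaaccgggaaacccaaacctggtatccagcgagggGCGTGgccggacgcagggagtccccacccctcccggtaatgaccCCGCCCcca
Flt1 (chr12:12333180-12333379, plus strand): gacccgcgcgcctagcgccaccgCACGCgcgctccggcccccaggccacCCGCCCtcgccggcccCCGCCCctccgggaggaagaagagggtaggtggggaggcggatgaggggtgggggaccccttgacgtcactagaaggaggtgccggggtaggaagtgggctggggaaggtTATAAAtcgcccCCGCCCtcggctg
Nos3 (chr4:11706632-11706831, minus strand): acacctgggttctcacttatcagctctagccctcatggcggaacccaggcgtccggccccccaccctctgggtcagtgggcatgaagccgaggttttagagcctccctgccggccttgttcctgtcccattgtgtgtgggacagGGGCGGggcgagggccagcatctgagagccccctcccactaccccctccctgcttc
Edn1 (chr17:22666738-22666937, minus strand): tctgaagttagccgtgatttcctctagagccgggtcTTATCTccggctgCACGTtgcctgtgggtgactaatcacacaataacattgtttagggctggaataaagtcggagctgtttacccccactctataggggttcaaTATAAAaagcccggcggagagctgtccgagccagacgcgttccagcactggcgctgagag

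The window of Kdr held 1 GC box and 2 matches to GCGTG, which is found in 21.2% of the 33469 RefSeq windows of the same 200 bases. That of Flt1 held 1 match to GCGTG and 3 GC boxes (24.2% of all windows hold at least 1). It also held a match to TATAAA (9.98%), 75 to 70 bases before the start. Edn1 had a match to TATAAA at 110 to 105 bases before the start, 1 match to ACGTG (13.2%) and 1 to AGATAA (8.57%). All windows end 51 bases before the start, so matches nearer to it were not looked for. The Vegfa window had 3 GC boxes and 1 match to AGATAA, and that of Nos3 had 1 GC box. That of Hif1a, which is not printed, held 3 matches to ACGTG, counting both strands. Those at 229 to 225 and at 228 to 224 bases before the start are the same palindrome, CACGTG, read on each strand. No exact match to TGANTCA (5.22%) was among the printed letters of any of the 5. Near matches to this motif were not searched, so sites that differ from it by a letter are not covered. Matches describe the sequence and show no binding.

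What doxorubicin did to these genes was asked by comparing DOX+saline with saline. The precursor of endothelin-1 rose, Vegfa, Kdr and Nos3 fell, and Flt1 and Hif1a did not pass the test. Counted, 4 of the 6 genes were called at a limma adjusted p below 0.05, 1 higher and 3 lower. Among all genes tested 58.0% were called, 38.0% higher and 20.0% lower, so a count of 4 of 6 is near the background. That split of all genes, 5595 higher and 2943 lower, depended on the scaling: it was 4061 and 4399 with median-of-ratios factors and 3424 and 4919 with quantile normalization. The direction of the 4 called genes was the same under both. Without animals 1 and 6, 3 of the 6 genes and 7130 of all genes were called. The median change of the 6 genes was -0.11 on the log2(TPM + 1) scale, against 0.10 over all genes tested. This scale understates the change of scarce genes such as Edn1. The groups did not overlap for 2 of the 6 genes, Kdr and Edn1, and for 32.2% of all genes tested.

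**Figure D1:**
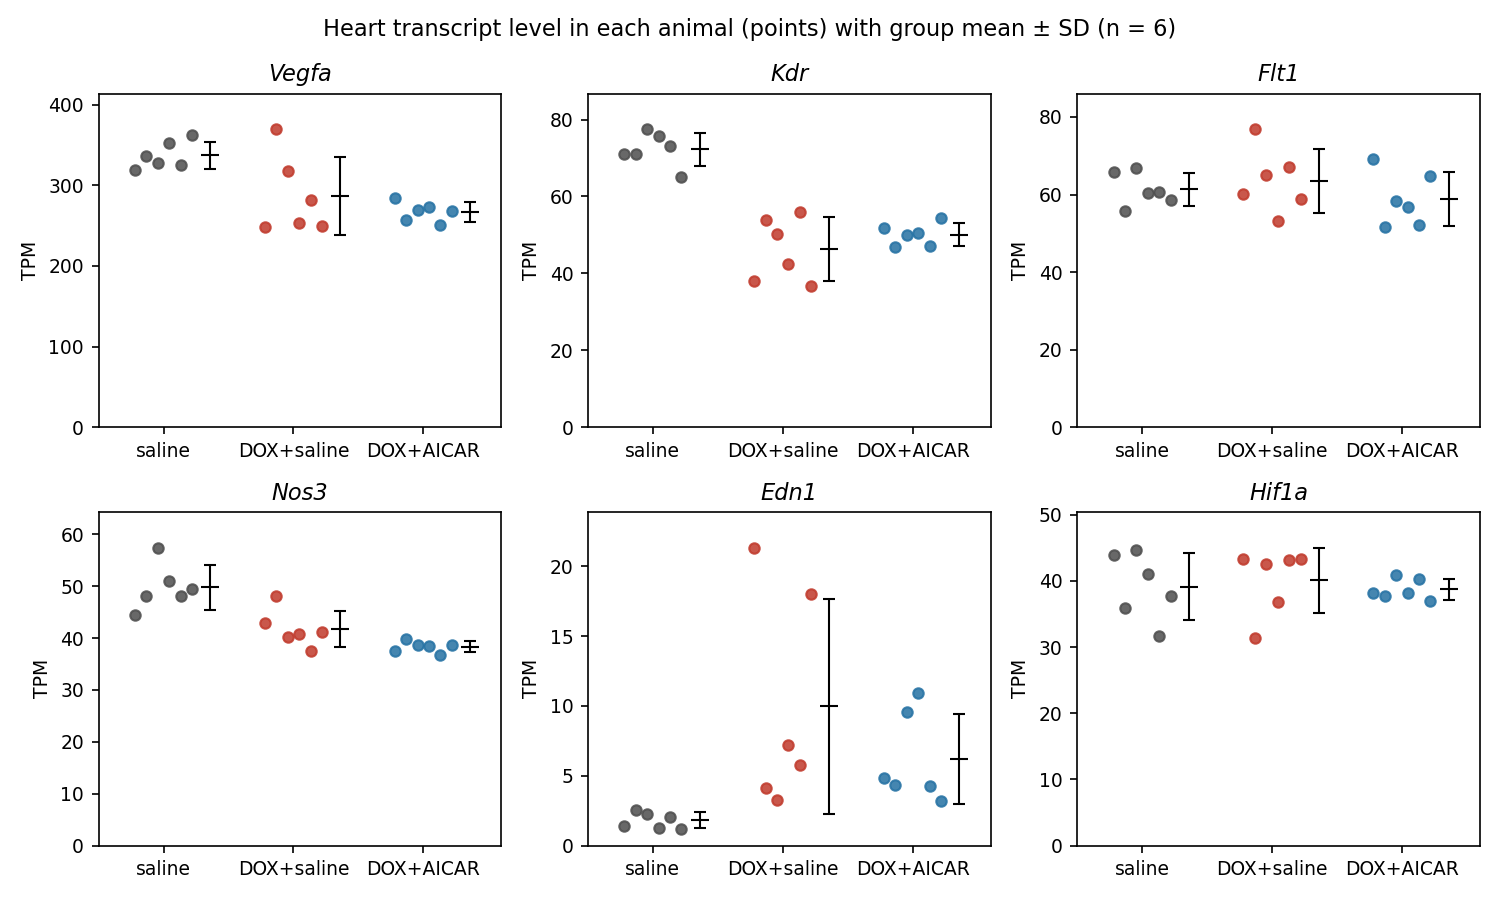
Each panel plots the level of 1 gene in TPM (vertical axis, from 0) in the 18 animals, grouped as saline, DOX+saline and DOX+AICAR. Points are animals and the bars show the mean ± SD (n = 6). Kdr and Edn1 of both doxorubicin groups lie outside the saline range, while the groups overlap for Flt1 and Hif1a.

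Vegfa, the ligand, was the most abundant of the 6 at 337 ± 16.97 TPM in saline (SD, n = 6), above 96.8% of all genes tested. Saline animals ran from 318.7 TPM to 362.7 TPM with a median of 332.4 TPM. In DOX+saline the lowest animal had 248.2 TPM, the median was 267.5 TPM and the highest animal had 369.4 TPM. Thus 5 of 6 DOX+saline animals lay below every saline animal, and animal 2 lay above them all. The mean fell to 0.85 of the saline mean, at 287 ± 48.6 TPM (SD, n = 6). On the log2 scale that is -0.25 with an SE of 0.08 and an adjusted p of 0.0127 in limma. Without animals 1 and 6, which had the lowest values of the group, the change was -0.15 and was no longer called (limma adjusted p = 0.11). With the 2 animals averaged as 1 sample it was -0.21 (limma adjusted p = 0.0346).

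Of the receptors, Kdr fell and Flt1 was not called. Kdr stood at 72.2 ± 4.33 TPM in saline, between 65.15 and 77.49 TPM with a median of 72.09 TPM. In DOX+saline it ran from 36.77 TPM in animal 6 to 56.04 TPM in animal 5, with a median of 46.42 TPM, and all 6 animals lay below the saline range. Its mean fell by 35.9% to 46.3 ± 8.28 TPM (SD, n = 6), which is -0.65 on the log2 scale with an SE of 0.09 and an adjusted p of 9.72e-06 in limma. A more negative change was found for 3.24% of all genes tested. Without animals 1 and 6 the change was -0.51 and was still called (limma adjusted p = 2.77e-05), and over all 29 alternatives it ran from -0.80 to -0.51.

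Flt1 averaged 61.4 ± 4.22 TPM in saline, with animals between 55.79 and 66.76 TPM and a median of 60.56 TPM. In DOX+saline animals lay between 53.19 and 76.83 TPM with a median of 62.57 TPM, on both sides of the saline range. The mean was 63.5 ± 8.15 TPM (SD, n = 6), a log2 change of 0.04 with a 95% interval from -0.13 to 0.22 (limma adjusted p = 0.691). The sign of this change was not stable: it was -0.08 with median-of-ratios factors and -0.01 without animal 2, the highest of the group.

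The order of the 2 receptors in TPM was therefore not the same in the groups. In TPM, which is per length, the ratio of Flt1 to Kdr within a library ran from 0.787 to 0.928 in saline. Its median there was 0.845, and Kdr had the higher TPM in all 6 animals. In DOX+saline the ratio ran from 1.2 in animal 5 to 1.6 in animal 6 with a median of 1.36, and up to 1.42 without animals 1 and 6. Every doxorubicin animal had a higher TPM of Flt1 than of Kdr, and the ratios did not overlap with saline. The side of 1 on which a ratio falls depends on the gene lengths, 6968 bp for Flt1 and 6334 bp for Kdr. In reads, saline animal 51 had 5352 for Flt1 and 5241 for Kdr. Shorter transcript forms were not kept apart, so which receptor had more molecules was not tested. The ratio of ligand to receptor moved apart as well. Vegfa over Kdr was 4.24 to 5.57 in saline and 5.04 to 6.84 in DOX+saline, overlapping in part, and Vegfa over Flt1 was 4.84 to 6.18 and 4.12 to 4.89, also with an overlap. These ratios are given as descriptions with no test.

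**Figure D2:**
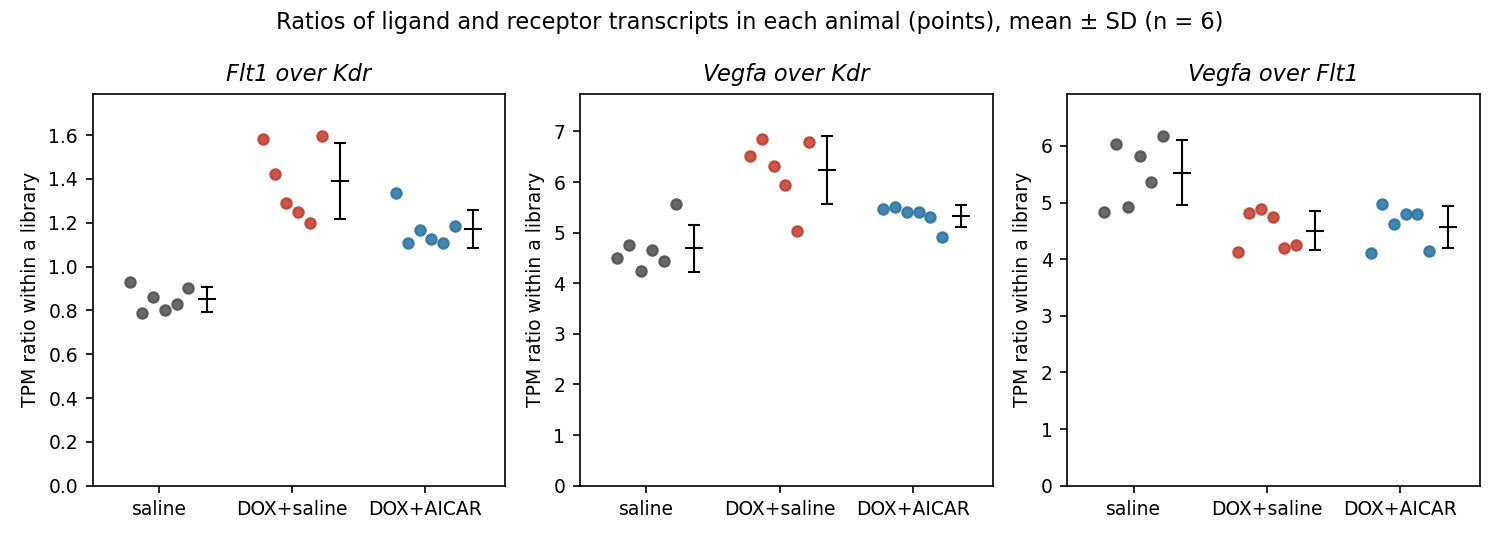
The vertical axis is the ratio of 2 genes' TPM within a library, from 0, for Flt1 over Kdr, Vegfa over Kdr and Vegfa over Flt1. Points are the 6 animals of each group, with the mean ± SD beside them. Flt1 over Kdr is below 1 in every saline animal and above 1 in all 12 doxorubicin animals.

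Hif1a, which encodes the factor upstream of Vegfa, had means of 39.1 ± 5.01 TPM without doxorubicin and 40.1 ± 4.94 TPM with doxorubicin alone (SD, n = 6). Saline animals lay between 31.61 and 44.72 TPM with a median of 39.34 TPM, and DOX+saline animals between 31.39 and 43.33 TPM with a median of 42.8 TPM. Of the latter, 5 of 6 were inside the saline range. The log2 change was 0.03, with a 95% interval from -0.15 to 0.21 (limma adjusted p = 0.763), and its sign turned to -0.086 with median-of-ratios factors. These are transcript levels and say nothing of the amount of HIF-1 alpha protein.

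Of the genes for vessel tone, Nos3 fell and Edn1 rose. Nos3 ran from 44.43 to 57.4 TPM in saline with a median of 48.84 TPM, and from 37.6 to 48.03 TPM in DOX+saline with a median of 41.06 TPM. Here 5 of 6 DOX+saline animals were below the saline range and animal 2 was within it. The mean fell from 49.8 ± 4.33 to 41.8 ± 3.5 TPM (SD, n = 6), a ratio of 0.84. In limma that gave -0.25 on the log2 scale, with an SE of 0.06 and an adjusted p of 0.00136. Without animals 1 and 6 the change was again -0.25 (limma adjusted p = 0.00581), as large as with them.

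Edn1 was scarce in saline hearts, at 1.81 ± 0.576 TPM, above 13.7% of the genes tested. Saline animals held between 1.227 and 2.586 TPM, from 18 to 50 reads each, for which the counting error alone is about 17.1%. In DOX+saline the animals had 21.3 (animal 1), 4.12 (animal 2), 3.29 (animal 3), 7.23 (animal 4), 5.8 (animal 5) and 18 TPM (animal 6). All 6 lay above the saline range, and animals 1 and 6 were far above the other 4 animals of the group. The mean was 5.51-fold higher at 9.96 ± 7.71 TPM (SD, n = 6). On the log2(TPM + 1) scale the rise was 1.70, with an SE of 0.37 and an adjusted p of 0.000782 in limma. Of all genes tested, 97.9% had a smaller or more negative change.

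The size of the Edn1 change depended on 2 libraries and on the scale, its direction on neither. Animals 2 to 5 averaged 5.11 ± 1.76 TPM (SD, n = 4), and without animals 1 and 6 the log2 change was 1.10 (limma adjusted p = 0.00395). With a pseudocount of 0.1 in place of 1, which compresses low values less, it was 2.10 (limma adjusted p = 0.000408), and with limma-voom on the recovered reads 2.11 (limma adjusted p = 0.00403). Over the 29 alternatives tried the adjusted p in limma ran from 1.6e-05 to 0.00405. The ratio of Edn1 to Nos3 within a library was 0.0248 to 0.0537 in saline and 0.0819 to 0.498 in DOX+saline, with no overlap. Without animals 1 and 6 the highest DOX+saline ratio was 0.177.

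**Figure D3:**
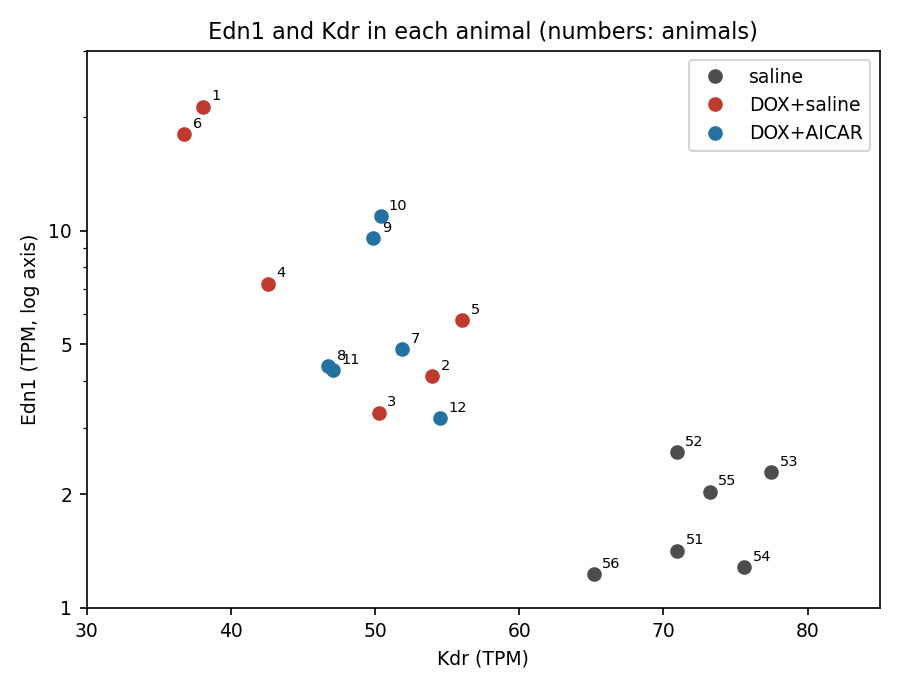
Each point is 1 animal, placed by its Kdr level (horizontal axis, TPM) and its Edn1 level (vertical axis, TPM, log scale), with the animal's number beside it. Saline animals lie at 65.15 TPM of Kdr or more and at 2.586 TPM of Edn1 or less, and DOX+saline animals 1 and 6 lie at the opposite corner.

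Within DOX+saline some animals took the extremes of more than 1 gene. Animals 1 and 6 had the lowest Vegfa (248.2 and 249.7 TPM), the lowest Kdr (38.05 and 36.77 TPM) and the highest Edn1 of the group. Their Vegfa was close to the 252.8 TPM of animal 4. Animal 2 had the highest Vegfa, Flt1 and Nos3 and the lowest Hif1a. For the 6 genes singly, the reads of animals 1 and 6 differed by a chi-square of 5.1 for Edn1 and of at most 1.94 for the other genes. The part of this likeness in the group's results was not tested beyond the fits without the pair.

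**Figure D4:**
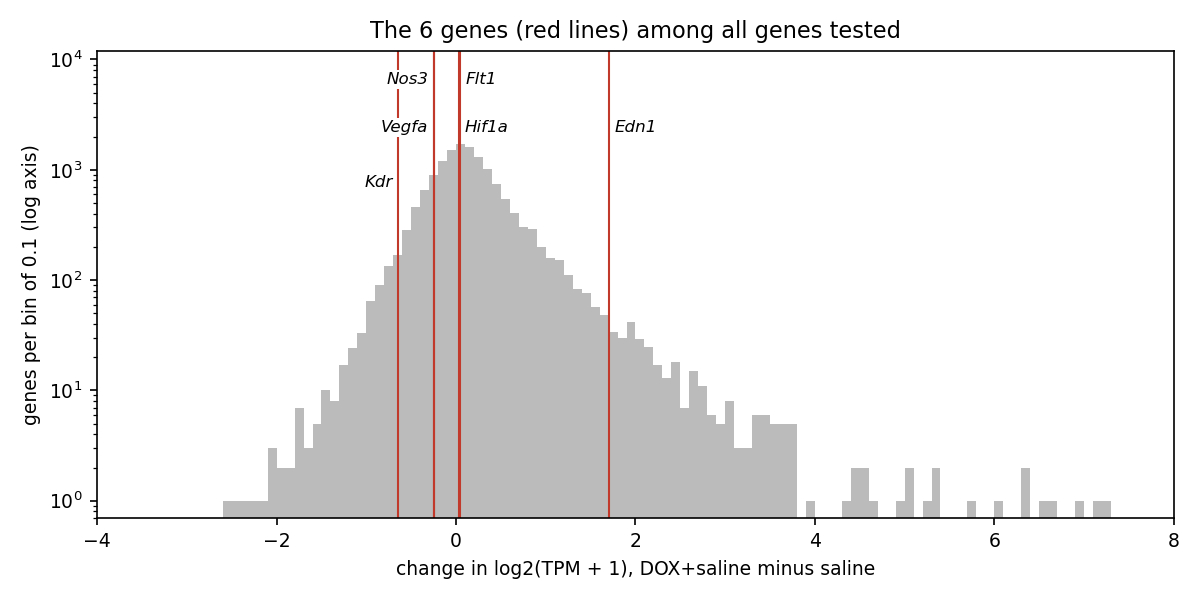
The histogram counts all 14732 genes tested by their change in log2(TPM + 1) from saline to DOX+saline (horizontal axis; vertical axis on a log scale), with red lines at the 6 genes. Edn1 lies in the upper tail at 1.70, Kdr in the lower tail at -0.65, Vegfa and Nos3 share a place at -0.25, and Flt1 and Hif1a sit near the centre.

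What AICAR added was asked by comparing DOX+AICAR with DOX+saline. By the labels these differ in AICAR and in the animal numbers, which run from 1 to 6 in DOX+saline and from 7 to 12 in DOX+AICAR. None of the 6 genes was called by limma (0 of 6), against 1.33% of all genes tested. With limma-voom on the recovered reads the count was also 0, against 1.53% of all genes tested. At an unadjusted p below 0.05 on log2(TPM + 1) it was again 0, against 17.6%. The groups overlapped for all 6 genes, while 1.51% of all genes tested did not overlap. The median change of the 6 genes was -0.10, against 0.00 over all genes tested.

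The intervals bound what a change could have been. For Edn1, at 6.20 ± 3.22 TPM in DOX+AICAR (SD, n = 6), the log2 change was -0.43 with a 95% interval from -1.21 to 0.35 (limma adjusted p = 0.582), which covers a lower as well as a higher level. Animals of DOX+AICAR had 3.19 to 10.95 TPM with a median of 4.61 TPM, all within the DOX+saline range but for the lowest (animal 12). Without DOX+saline animals 1 and 6 the sign turned to 0.17 (limma adjusted p = 0.78). For Nos3, at 38.3 ± 1.06 TPM, the change was -0.12 with an interval from -0.24 to 0.0012 and an adjusted p of 0.29 in limma.

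Kdr stood at 50.1 ± 2.93 TPM in DOX+AICAR, between 46.77 and 54.51 TPM, inside the DOX+saline range. Its log2 change was 0.13 with a 95% interval from -0.06 to 0.32 (limma adjusted p = 0.476), and -0.01 without DOX+saline animals 1 and 6. Vegfa averaged 267 ± 11.9 TPM (log2 change -0.09, 95% interval -0.26 to 0.08, limma adjusted p = 0.604). Without DOX+saline animals 1 and 6 the Vegfa change was -0.18 (limma adjusted p = 0.198). Flt1 averaged 58.8 ± 6.95 TPM (log2 change -0.11, 95% interval -0.28 to 0.07, limma adjusted p = 0.532). Hif1a averaged 38.7 ± 1.53 TPM (log2 change -0.04, 95% interval -0.22 to 0.14, limma adjusted p = 0.845). Misses of the threshold at these widths do not show that AICAR left the genes as they were.

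**Figure D5:**
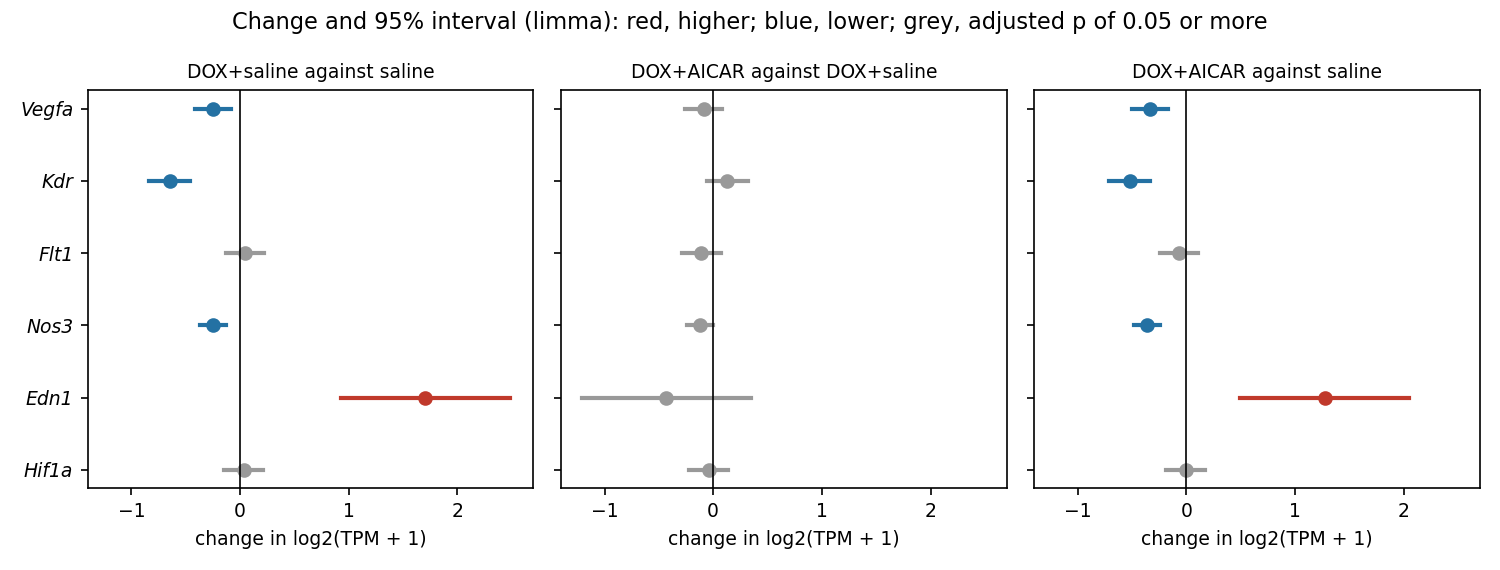
Each panel shows 1 comparison, with the change in log2(TPM + 1) on the horizontal axis and 1 gene per line. Points are the limma estimates and bars their 95% intervals, red where a gene was called higher, blue where called lower and grey where not called. The same 4 genes are coloured against saline in both doxorubicin groups, and all 6 are grey between those groups.

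Rats given both drugs were then compared with saline rats, a comparison that shares its saline libraries with the first. The same 4 genes were called as in DOX+saline, 1 higher and 3 lower, where 53.3% of all genes tested were called, 34.8% higher and 18.4% lower. Here too the split of all genes, 5133 higher and 2717 lower, depended on the scaling, at 3750 and 4162 with median-of-ratios factors and 3207 and 4703 with quantile normalization. Groups did not overlap for these 4 genes, Vegfa, Kdr, Nos3 and Edn1, and for 34.5% of all genes tested. The median change of the 6 genes was -0.20, against 0.09 over all genes tested.

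Nos3 was 23.0% lower in DOX+AICAR than in saline by its means, with -0.37 on the log2 scale, an SE of 0.06 and an adjusted p of 4.38e-05 in limma. Its 6 animals spanned 36.71 to 39.83 TPM, all below the lowest saline animal at 44.43 TPM. Vegfa ran from 250.1 to 283.8 TPM, all below the saline minimum of 318.7 TPM (log2 change -0.34, SE 0.08, limma adjusted p = 0.00172). For Kdr limma gave -0.52 on the log2 scale, with an SE of 0.09 and an adjusted p of 0.000111, beside -0.65 in DOX+saline. Flt1 over Kdr ran from 1.11 to 1.33, above every saline animal, and overlapped with DOX+saline.

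Edn1 was 3.43-fold higher in DOX+AICAR than in saline by its means (log2 change 1.27, SE 0.37, limma adjusted p = 0.00762), and each of the 6 animals exceeded the highest saline animal. Flt1 (log2 change -0.07, 95% interval -0.24 to 0.11, limma adjusted p = 0.531) and Hif1a (log2 change -0.01, 95% interval -0.19 to 0.17, limma adjusted p = 0.953) were not called.

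The order of the 6 levels was read within each group. In saline the means ran Vegfa, Kdr, Flt1, Nos3, Hif1a and Edn1 from high to low. Vegfa and Edn1 were separate from the rest in every group, while the ranges of Kdr and Flt1, of Flt1 and Nos3 and of Nos3 and Hif1a overlapped between saline animals. In DOX+saline Flt1 came second and Kdr after it, with overlapping ranges. In DOX+AICAR, Kdr lay above Hif1a and Nos3 with no overlap, and the last 2 of these could not be separated.

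Likeness to other genes was measured as Pearson's r of log2(TPM + 1) over the 18 libraries, which share the group differences and the fixed total, and is given as a description. Kdr had 505 genes with r above 0.9, the nearest being ENSRNOG00000006399 at r = 0.97, which averaged 133, 90.1 and 93.4 TPM in saline, DOX+saline and DOX+AICAR. Edn1 had 81 such genes, the nearest being ENSRNOG00000013717 at r = 0.96, with 30.1, 46.5 and 42.1 TPM. Vegfa had 15, the nearest being ENSRNOG00000016692 at r = 0.93, with 368, 288 and 268 TPM. Nos3 had 1, and Flt1 and Hif1a had 0. Such counts were not made for the other genes tested, so there is no background to set these against. No name or function is attached to these identifiers.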

How the data were processed

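The submitters' processing notes name bcl2fastq (2.17.1.14), HISAT2, the build Rnor_6.0 and featureCounts of Subread (1.5.0). For the annotation release, the strand setting and the TPM step, the procedure was not given in the sources used here. The authors deposited TPM values for 32545 Ensembl identifiers in 18 libraries, each summing to 1000000, so a rise in one gene lowers the values of others.

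Whole reads were recovered from the steps between TPM values of low genes. All 25878 genes above 0 came out whole within 0.001 reads, and gene lengths within 0.05 bp for 100% of 20828 genes. Limma-voom on these reads called 8543 genes for DOX+saline against saline, beside 8538 on TPM. Counting errors cover the sampling of reads only, which carry no molecular identifiers in the sources used here.

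Genes reaching 1 TPM in 6 or more libraries were kept, and their log2(TPM + 1) values were fitted in limma 3.58.1 (R 4.3.3), with a mean per group over all 18 libraries and a mean-variance trend. P-values were two-sided and Benjamini-Hochberg adjusted over all 14732 genes. Beyond the animal numbers in the labels nothing states how samples were taken, so p-values and 95% intervals measure the spread between these samples. Recovery and fit were tested on simulated data.

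The rule for the members uses identifiers only, but members and lists were chosen with earlier results of these data known. The named genes are the 6 members and the identifier with the highest r to Vegfa, Kdr and Edn1. Those nearest to Flt1, Nos3 and Hif1a are not printed, since identifiers without names were kept few. Because 0 identifiers matched the reference table (GRCr8), 4 pathway lists and 5 cell type marker lists fixed by symbol were not analysed here, and endothelial markers could not be checked.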

Additional observations from a re-analysis of the deposited data

How the results depend on the processing

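Over 29 alternatives the 4 genes called against saline in DOX+AICAR were called in each, and those in DOX+saline in each but 1: Vegfa was not called without DOX+saline animals 1 and 6 (-0.15, 3 of 6 genes called). Between the doxorubicin groups none of the 6 was called in any of the 29. Not all 29 can move an estimate. Leaving out animals of the group not compared, other filters and the fit of only the 12 libraries compared leave the change as it was. They alter only the spread or the set of genes tested. Edn1 in DOX+saline ranged from 1.10 to 2.29 (adjusted p 1.6e-05 to 0.00405) and Kdr from -0.80 to -0.51 (1.04e-07 to 0.000172). Leaving out each animal gave -0.32 to -0.21 for Vegfa and 1.44 to 1.91 for Edn1. The fits without animals 1 and 6, and with them averaged, were chosen after seeing the data, including the extreme Edn1 and Kdr of that pair.

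Signs turned only for changes that were not called. With median-of-ratios factors Flt1 (-0.078) and Hif1a (-0.086) turned in DOX+saline, as with quantile normalization (-0.0046 and -0.038). These scalings moved the median change of all genes there by -0.11 and -0.16, and by -0.10 and -0.15 in DOX+AICAR against saline. Relative to the median of all genes, the deposited values gave -0.75 for Kdr, -0.35 for Vegfa and for Nos3, 1.60 for Edn1, -0.06 for Flt1 and -0.07 for Hif1a. Leaving out each animal gave -0.014 to 0.090 for Flt1 and -0.025 to 0.0997 for Hif1a in DOX+saline, and -0.065 to 0.032 for Hif1a in DOX+AICAR against saline, where array weights gave 0.012. Between the doxorubicin groups, array weights gave 0.014 for Vegfa, and leaving out DOX+saline animals 1 and 6 gave -0.012 for Kdr, 0.169 for Edn1 and 0.019 for Hif1a (-0.026 for Hif1a against saline).

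The count of all genes called between the doxorubicin groups was 196. It was 321 with quantile normalization, 16 with only the 12 libraries compared, 1058 with array weights, 44 with animals 1 and 6 averaged, 272 without them, and 36 to 461 when leaving out each animal. The cause was not tested. No paired analysis was possible because the groups share no replicate numbers. Edn1 in saline rests on 18 to 50 reads per library, which limits its fold change.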

Other observations

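The spread between animals was not alike in the groups. In DOX+saline the coefficient of variation (SD as a percentage of the mean, n = 6) was 16.96% for Vegfa, 17.9% for Kdr, 8.38% for Nos3 and 12.3% for Hif1a. In DOX+AICAR it was 4.44%, 5.85%, 2.77% and 3.96% in the same order, and in saline 5.03%, 5.99%, 8.69% and 12.8%. Counting error at the mean number of reads was at most 2.2% for these genes. For Flt1 the values were 12.8%, 11.8% and 6.88% for DOX+saline, DOX+AICAR and saline, and for Edn1 77.3%, 51.9% and 31.9%. The DOX+saline values depended on single animals. Without animal 2 (n = 5) they were 11.1% for Vegfa, 8.98% for Flt1, 4.72% for Nos3, 6.74% for Hif1a, 18.4% for Kdr and 71.9% for Edn1. Without animals 1 and 6 (n = 4) they were 11.7% for Kdr and 34.3% for Edn1, and 16.4% for Vegfa, 14.8% for Flt1, 10.7% for Nos3 and 14.3% for Hif1a. The difference in spread was not tested.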
